A study of Mus musculus with 2 samples.

Results

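Most animal microRNAs (miRNAs) are cut from a long primary transcript by the nuclear enzyme Drosha with its partner DGCR8, and the released hairpin is then cut to the mature miRNA by Dicer in the cytoplasm. A few miRNAs reach Dicer without Drosha. In capped precursors, of which Mir320 and Mir484 are the known mouse examples treated here, transcription itself begins at or beside the first base of the hairpin, so the precursor carries the cap of a nascent RNA polymerase II transcript. In mirtrons, here Mir877 and Mir1224, the hairpin is a whole short intron, and splicing followed by debranching takes the place of the Drosha cut.

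These 4 genes were chosen by name, 2 capped precursors and 2 mirtrons, out of 2202 annotated miRNA genes. No count threshold was used, but the choice was made with earlier results of these data known. They were measured by microRNA sequencing in hippocampus of male mice of the hybrid strain B6CASTF1/J, bred from C57BL/6J and CAST/EiJ parents, at 14 days of age. The 1 group had 2 replicates with no treatment, mutation or second condition, so there was no Drosha or DGCR8 loss against which to set the levels. Each label named 3 males by different numbers and both gave 1 donor identifier, so the replicates may be technical. The p-values below measure counting error or, in edgeR's test, only the spread of these samples. Each gene stands for 1 hairpin and the counts did not separate its arms.

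Replicate 1 held 3793934 counts on miRNA genes and replicate 2 held 2554997, and levels are given as counts per 1000000 of these counts (CPM). Unmapped reads were 41.3% of all reads in replicate 1 and 20.7% in replicate 2, while reads that mapped to several places and counted for no gene were 26.3% and 37.5%. Of 12 miRNA genes listed as markers of neurons, 8 were detected, meaning that both libraries had at least 2 CPM. Those not detected were Mir124a-1, Mir124a-2, Mir124a-3 and Mir9-2. They are numbered copies, whose reads can map to several places and so count for no gene, and their low counts do not show absence. Summed levels over the list, which miss such reads, were 30634 CPM in replicate 1 and 21472 CPM in replicate 2. That order rested on Mir132, a miRNA induced by neuronal activity, at 17266 CPM in replicate 1 and 5947 CPM in replicate 2. Without it the sums were 13368 CPM in replicate 1 and 15525 CPM in replicate 2. Mir212, also on the list, hardly differed, at 491 CPM in replicate 1 and 471 CPM in replicate 2. By an exact binomial test of counts, 2 of the 8 detected markers had a higher level in replicate 1, 4 had one in replicate 2 and 2 did not pass. The liver marker Mir122 was at 20.6 CPM in replicate 1 and 29.7 CPM in replicate 2. Of 5 muscle markers, 4 had no count in either library. Reads that map to several places count for no gene, so this lack of counts does not show that muscle RNA was absent. The muscle marker with counts, Mir206, was at 27.4 CPM in replicate 1 and 35.6 CPM in replicate 2. The 2 red cell markers summed to 50.9 CPM in replicate 1 and 179 CPM in replicate 2.

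Mature sequences of 3 of the 4 genes, Mir484, Mir877 and Mir1224, were matched in RefSeq on GRCm38.p6, and Mir320 is named only. They are shown because a seed, the stretch of bases 2 to 8 that pairs with target messenger RNAs, largely sets which targets a miRNA binds. The seeds are in capitals.
mmu-miR-484: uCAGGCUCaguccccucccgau
mmu-miR-877-5p: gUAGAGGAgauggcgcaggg
mmu-miR-877-3p: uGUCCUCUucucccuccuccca
mmu-miR-1224-5p: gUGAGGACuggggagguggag
mmu-miR-1224-3p: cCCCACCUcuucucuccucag

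No seed was shared between these 5 mature sequences, and none recurred among the 1738 mature sequences of the RefSeq table, so the seeds gave no group of more than 1 arm. The 5′ arms of the mirtrons had at most 5 bases in a row in common, GAGGA, which 65 of the 1738 mature sequences (3.74%) also hold. Their 3′ arms had 9 in common, CCUCUUCUC, which begins at base 4 of mmu-miR-877-3p and at base 6 of mmu-miR-1224-3p. Of all mature sequences in the table, 3 hold it, these and mmu-miR-7008-3p.

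The hairpins show where each mature sequence lies. In the capped precursor the mature miRNA is in capitals, and in the mirtrons the capitals are the first and last pair of bases, which are also those of the intron.
Mir484: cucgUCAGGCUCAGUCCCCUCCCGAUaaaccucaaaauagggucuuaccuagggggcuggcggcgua
Mir877: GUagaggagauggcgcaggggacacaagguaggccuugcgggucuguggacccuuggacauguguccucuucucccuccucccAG
Mir1224: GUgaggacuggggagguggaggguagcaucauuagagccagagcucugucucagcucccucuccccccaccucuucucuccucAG

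Both mirtrons begin with GU and end with AG, the bases at the ends of most introns, as do 30 of the 1005 RefSeq hairpins (2.99%). In Mir877 the 5′ arm starts at base 1 and the 3′ arm ends 1 base before the end of the intron. In Mir1224 the arms start and end with the intron itself. Mir484 has a single annotated mature sequence, at bases 5 to 26 of a hairpin of 67.

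The base composition at the ends of the hairpin differed between the mirtrons and Mir484. Pyrimidines made up 90% of the last 20 bases of Mir877 and 85% in Mir1224, values above those of 99.3% and 97.4% of the RefSeq hairpins, whose median was 55%. A pyrimidine tract before the closing AG is a general feature of introns, where it binds splicing factors. Purines made up 80% of the first 20 bases in both. In Mir484 the same shares were 40% and 30%. GC content was 61.2% in Mir877, 60% in Mir1224 and 58.2% in Mir484, against a median of 51.7% over the table. Predicted folding energy was −36.5 kcal/mol for Mir877, −42.8 kcal/mol for Mir1224 and −24.6 kcal/mol for Mir484. Per base, Mir1224 was predicted to be more stable than 84.6% of the hairpins, Mir877 than 60.6% and Mir484 than 33.9%.

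The positions of the genes in the GENCODE M21 annotation of mm10 followed the same division. Mir877 (ENSMUSG00000077931.1) lies at positions 35960730 to 35960814 on the minus strand of chromosome 17, and these are also the first and last base of an intron of 85 bases in Abcf1, which encodes an ATP-binding cassette protein that acts in translation initiation. Mir1224 (ENSMUSG00000080669.1) lies at 20604452 to 20604536 on the plus strand of chromosome 16 and likewise fills an intron of 85 bases in Vwa5b2, with 0 bases left over at either end. Neither capped precursor lies in a gene on its own strand. Mir320 (ENSMUSG00000065528.1) lies at 70443510 to 70443591 on the plus strand of chromosome 14, and its first base is 63 bases from the start of Polr3d, a subunit gene of RNA polymerase III that runs the other way. Mir484 (ENSMUSG00000070074.1) lies at 14159626 to 14159692 on the plus strand of chromosome 16, and is 359 bases from a start of Marf1, which encodes an RNA-binding regulator of meiosis and also runs the other way. Another Marf1 transcript has an exon that overlaps the last 19 bases of the Mir484 hairpin on the opposite strand. The next transcript start on the strand of Mir484, that of Nde1, is 3649 bases away. No other annotated miRNA gene lies within 10 kb of any of the 4.

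**Figure D1:**
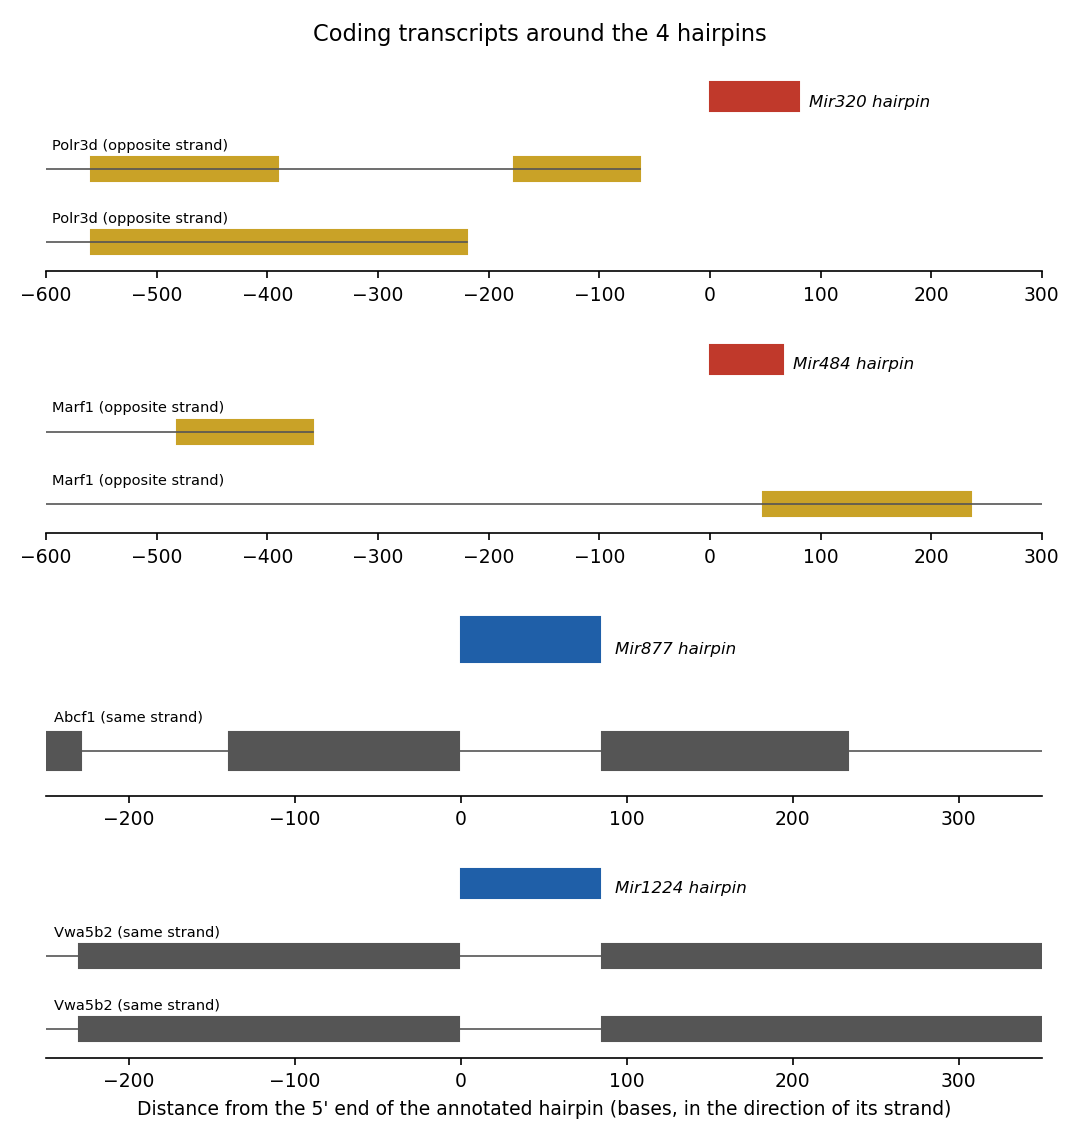
Coding transcripts around the 4 hairpins, with the distance in bases from the first base of the hairpin on the horizontal axis and boxes for exons (gold on the opposite strand, dark grey on the same strand). The hairpins of Mir877 and Mir1224 fill the gap between adjoining exons, while Mir320 and Mir484 begin 63 and 359 bases from the start of a coding transcript that points away from them.

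All 4 genes were detected, against 19.3% of the 2202 genes of the table. Mir320, whose mature products are known for regulating glucose metabolism and cell growth, had 9681 counts in replicate 1 and 4629 in replicate 2. Its level was thus 2552 CPM in replicate 1, with a 95% Wilson interval of 2501 to 2603, and 1812 CPM (1760 to 1865) in the other library. Its mean was 2182 ± 523 CPM (SD, n = 2), rank 73 of all genes, and 82.9% of the 426 detected genes were below it. Reads that mapped to several places counted for no gene, so miRNA genes with copies may be counted too low. The ranks, shares and detection of the 4 genes, which have no such copy among the annotated miRNA genes, may look too high beside them.

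Mir484, a miRNA best known as a regulator of mitochondrial fission, had 9776 and 5191 counts in the same order. Its level was 2577 CPM (2526 to 2628) in replicate 1 and 2032 CPM (1977 to 2088) in replicate 2, with a mean of 2304 ± 385 CPM (SD, n = 2) at rank 70. Both capped precursors were higher in replicate 1. The intervals cover counting error alone, because PCR copies cannot be told from separate molecules here.

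Mir877, the mirtron of Abcf1, had 2176 and 1228 counts, 574 CPM (550 to 598) in replicate 1 and 481 CPM (454 to 508) in replicate 2. Its mean was 527 ± 65.7 CPM (SD, n = 2) at rank 137, and it had rank 135 in each library taken alone. Mir1224, the mirtron of Vwa5b2, had 896 and 830 counts, 236 CPM (221 to 252) in replicate 1 and 325 CPM (303 to 348) in replicate 2, with a mean of 281 ± 62.7 CPM (SD, n = 2) at rank 169. It was the 1 gene of the 4 that was higher in replicate 2. That direction is not particular to any marker list. The sum of the red cell markers was also higher in replicate 2, as were 26.8% of all tested genes in the exact binomial test. Mir122 and Mir206 lay the same way without passing that test, and the neuron markers had no common direction. The part of cell makeup in these differences was not tested, and in bulk tissue fewer cells of a type cannot be told from less RNA per cell.

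**Figure D2:**
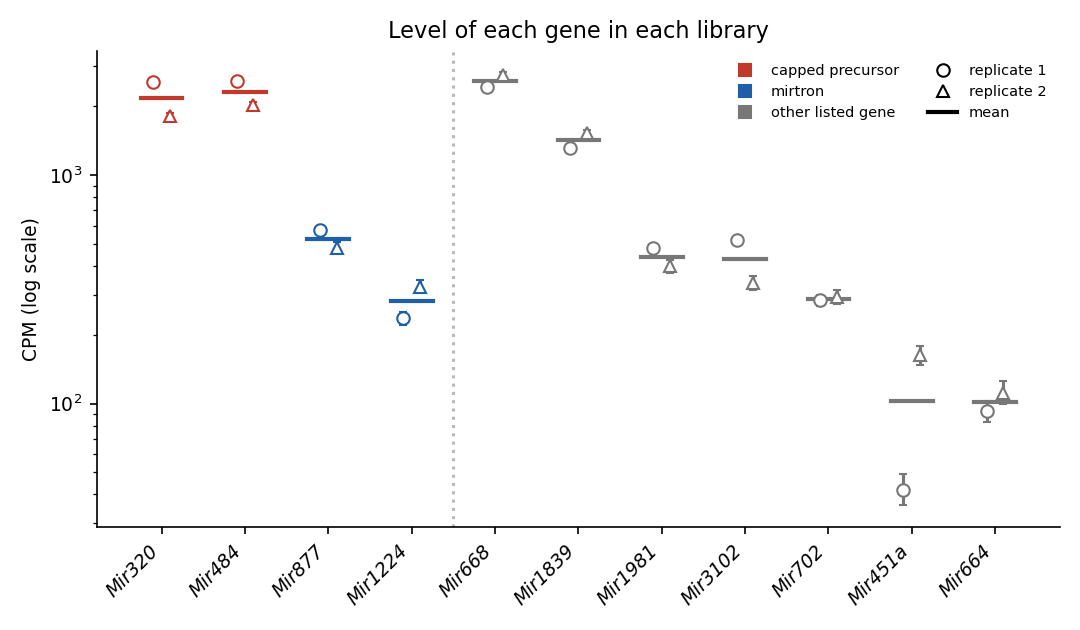
CPM on a log axis for the 4 genes (left of the dotted line) and for 7 other listed genes with a count; circles are replicate 1, triangles replicate 2, error bars 95% Wilson intervals and bars means of the libraries. Mir320 and Mir484 sit between 1812 and 2577 CPM, Mir877 and Mir1224 between 236 and 574 CPM.

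No read was counted on the opposite strand at any of the 4 hairpins in either library, although Mir484 overlaps an exon of Marf1 there. The column that ignored strand gave the same counts as the column on the strand of the gene for each of them. None shared a stretch of 20 bases with another annotated miRNA gene. The mature sequences of Mir484, Mir877 and Mir1224 were found in no annotated transcript other than the hairpin, in either orientation. Copies elsewhere in the genome were not searched for here.

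The order of the levels was Mir484, Mir320, Mir877, Mir1224, from high to low. Mir484 was 1.01 times Mir320 in replicate 1 (95% exact interval 0.982 to 1.04) and 1.12 times in replicate 2 (1.08 to 1.17), and their ranges over the libraries overlapped, so that the capped precursors were not separated. Mir320 was 4.45 times Mir877 in replicate 1 (4.25 to 4.66) and 3.77 times in replicate 2 (3.54 to 4.02), with ranges that did not overlap. Mir877 was 2.43 times Mir1224 in replicate 1 (2.25 to 2.63) and 1.48 times in replicate 2 (1.35 to 1.62), again without overlap. With 2 libraries no permutation test of these levels could reach p = 0.05. Divided by hairpin length, the means were 3439, 2661, 620 and 330 CPM per 100 bases in the same order of genes. Reads were labelled as under 30 bases, shorter than any of the hairpins, so length has less bearing here than for messenger RNA.

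The capped precursors together held 0.513% of counts in replicate 1, with a 95% Wilson interval of 0.506 to 0.520, and 0.384% (0.377 to 0.392) in the other library. The mirtrons held 0.0810% (0.0782 to 0.0839) and 0.0805% (0.0771 to 0.0841), with Mir877 higher in replicate 1 and Mir1224 higher in replicate 2. The capped sum was thus 6.33 times the mirtron sum in replicate 1 (95% exact interval 6.10 to 6.58) and 4.77 times in replicate 2 (4.55 to 5.01). All 4 genes held 0.529% ± 0.0912 of counts (SD, n = 2).

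**Figure D3:**
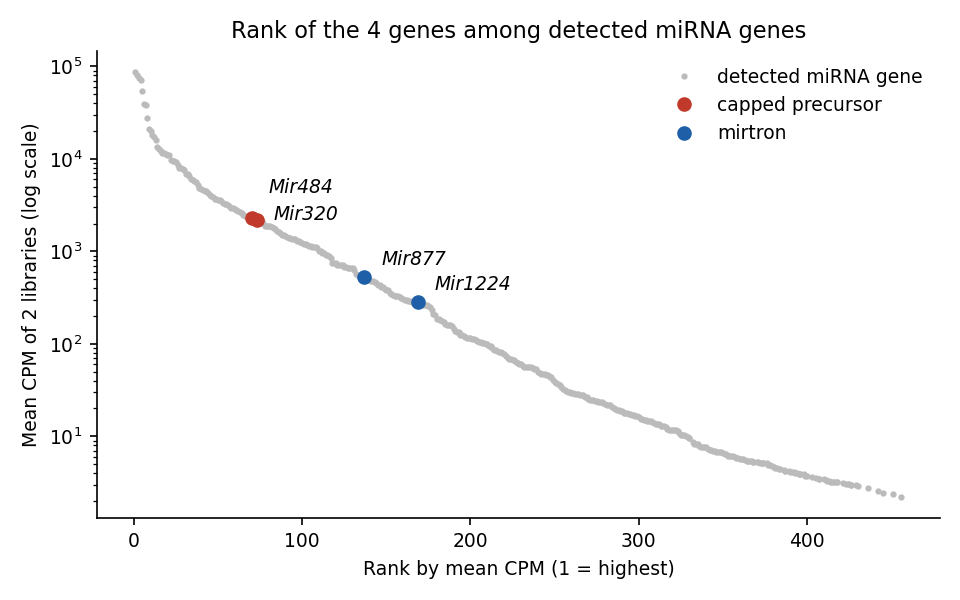
Mean CPM on a log axis against rank for the 426 detected genes (grey), with the 4 genes in colour. Mir484 and Mir320 are at ranks 70 and 73 and the mirtrons Mir877 and Mir1224 at ranks 137 and 169.

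The libraries were then compared gene by gene, to see how far each level held between the samples. In a two-sided exact binomial test with Benjamini-Hochberg adjustment, which covers counting error only and compares these libraries and not conditions, 4 of 4 members differed. The share of all 507 tested genes that did so was 52.1%. That share includes many genes with few counts, which can hardly pass a test of counting error, so it is no like background for the members. Most tested genes with a mean of at least 100 CPM, a level that all 4 members exceed, also passed. Passing thus does not set the members apart from genes of like level. Mir320 was 1.41-fold higher in replicate 1 (adjusted p = 7.2e-84, exact binomial test), Mir484 1.27-fold (adjusted p = 1.2e-43, exact) and Mir877 1.19-fold (adjusted p = 1.91e-06, exact). Mir1224 was 1.38-fold higher in replicate 2 (adjusted p = 1.5e-10, exact). Of all tested genes 25.2% were higher in replicate 1 and 26.8% in replicate 2.

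The differences were also set against the spread over all genes. That spread, a common dispersion with a coefficient of variation of 0.378, comes from the same 2 libraries, so few genes could pass and the test is no independent check of the members. In edgeR's exact test with this dispersion, 0 of 4 members passed and the unadjusted p lay between 0.503 for Mir320 and 0.715 for Mir877. Of 507 genes, 2 passed (0.394%) and 23 (4.54%) had an unadjusted p under 0.05. For comparison, 210 tested genes averaged at least 100 CPM, and their log2 ratios had a median size of 0.42. Ratios larger than that of Mir320 (0.49) were found for 37.6% of these genes, larger than that of Mir1224 (−0.46) in size for 41.0%, than that of Mir484 (0.34) for 57.1% and than that of Mir877 (0.25) for 68.1%.

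**Figure D4:**
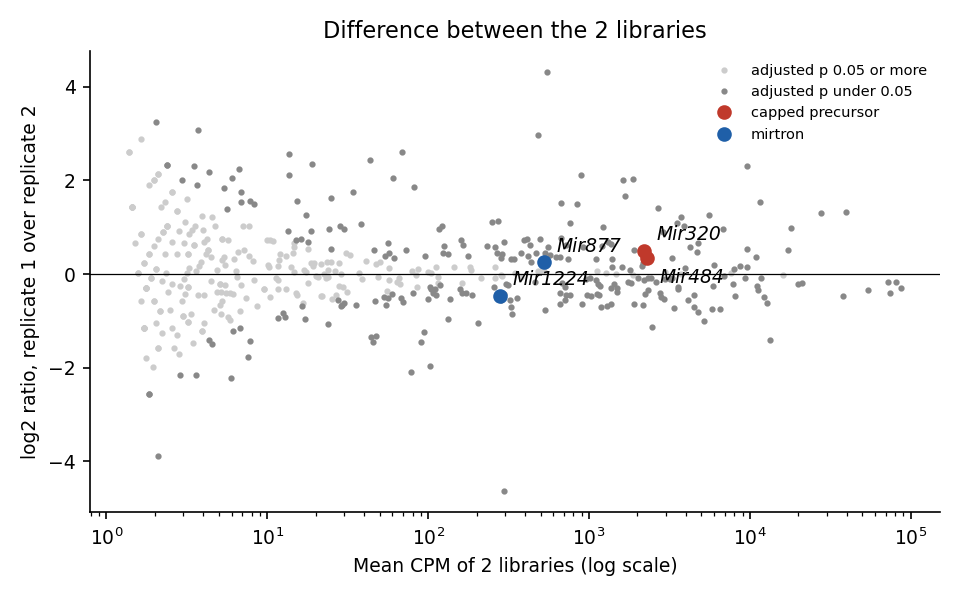
The log2 ratio of replicate 1 over replicate 2 against mean CPM (log axis) for tested genes with a count in both libraries, dark grey where the exact binomial test passed. Mir320, Mir484 and Mir877 lie at 0.49, 0.34 and 0.25 and Mir1224 at −0.46, inside the cloud of genes of like level.

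Both mirtrons belong to a wider class of annotated miRNA genes that fill an intron, defined by position alone: each end of the hairpin within 10 bases of the end of 1 intron on the same strand. The class had 29 genes, of which 22 matched the intron to the base. Of the 29, 15 were detected (51.7%, against 19.3% of all genes), and 6 had no count in either library. Mir877 was the highest of them in each library, and Mir1224 had rank 6 among them in replicate 1 and rank 5 in replicate 2. Together the mirtrons Mir877 and Mir1224 held 30.3% of the counts of the class in replicate 1 and 33.9% in replicate 2. Both this share and the first rank of Mir877 depended on the tolerance: at 20 bases the class took in Mirlet7i, at 54566 CPM on average, and the share was 1.59% in replicate 1 and 1.27% in replicate 2. The median over the 15 detected genes was 28.5 CPM, which both mirtrons exceeded, and over all 426 detected genes 88.3 CPM. The 23 hairpins of the class found in RefSeq had a median of 75% pyrimidines in the last 20 bases, and 15 of the 23 began with GU and ended with AG.

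The highest members of that class after Mir877 were 3 further genes. Mir1981, a mirtron that fills an intron of 82 bases in Marc2, was at 477 CPM in replicate 1 and 398 CPM in replicate 2. Mir3102 fills an intron of 104 bases in Arhgef17 and was at 520 CPM and 337 CPM in the same order. Mir7080 fills an intron of 67 bases in Cpne7, a copine gene, and was at 351 CPM and 344 CPM. The range of Mir877 over the libraries overlapped that of Mir3102 but not those of Mir1981 and Mir7080. The range of Mir1224 lay below those of all 3. In all, 7 of the 29 genes reached a mean of 100 CPM.

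The capped precursors share with 34 other miRNA genes that a coding gene on the opposite strand starts within 500 bases of the first base of the hairpin, a class chosen after the loci were seen. Only 5 of these 36 genes were detected (13.9%, against 19.3% of all genes). Mir484 was the highest in each library, and Mir320 had rank 2 in replicate 1 and rank 3 in replicate 2, where Mir760 came before it. Mir760 lies 433 bases from a start of Bcar3 and was at 2246 CPM in replicate 1 and 1991 CPM in replicate 2. The capped precursors held 69.4% of the counts of the class in replicate 1 and 65.7% in replicate 2. Within 1000 bases Mir191, at 11185 CPM on average, was the highest and the share was 29.7% in replicate 1 and 20.9% in replicate 2, while within 200 bases Mir320 was the 1 capped precursor left. The other detected genes were Mir1934 at 6.15 ± 3.48 CPM and Mir5620 at 4.13 ± 0.864 CPM (SD, n = 2 each).

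**Figure D5:**
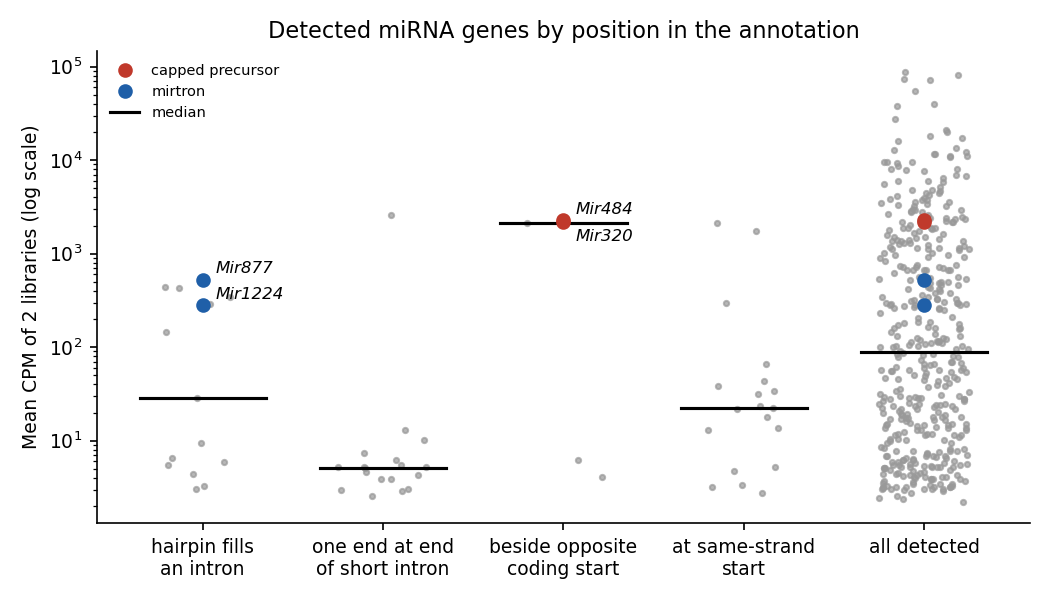
Mean CPM (log axis) of detected genes by position: hairpins that fill an intron (15), hairpins with one end at the end of an intron of at most 200 bases (18), genes beside an opposite coding start (5), genes at a start on the same strand (19) and all detected genes (426); lines are medians. Mir877 and Mir1224 lie above the median of the first class, and Mir484 and Mir320 are at 2304 and 2182 CPM in the third.

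A list of 8 further genes held known and candidate mirtrons, miRNAs derived from other small RNAs, and the Dicer-independent Mir451a, and 7 of them were detected. Mir702, a mirtron whose annotated hairpin extends 9 bases into the upstream exon of Plod3, was at 283 CPM in replicate 1 and 292 CPM in replicate 2, close to Mir1224. Mir668, whose hairpin starts 1 base before an intron of 92 bases in Mirg and leaves 27 bases of it as a tail, was the highest of the list at 2592 ± 224 CPM (SD, n = 2). It was below both capped precursors in replicate 1, at 2434 CPM, and above both in replicate 2, at 2751 CPM. Mir1839, which is derived from a small Cajal body RNA, was at 1422 ± 150 CPM, and Mir664, which overlaps the small nucleolar RNA gene Snora36b, at 102 ± 13.5 CPM. Mir451a, which needs Drosha but is finished by Argonaute 2 in place of Dicer and comes from red cells, was at 41.9 CPM in replicate 1 and 162 CPM in replicate 2. In the exact binomial test 2 of the 7 tested genes were higher in replicate 1, 4 were higher in replicate 2 and Mir702 did not pass. Mir344-2 had 0 counts in both libraries, which, at a limit of 3 counts, allows up to 0.791 CPM in replicate 1 and 1.17 CPM in replicate 2 for reads that map to 1 place.

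The detected genes most like each member were taken as the 2 with the smallest distance between log2(CPM + 0.5) values over the 2 libraries. For Mir320 these were Mir1983 (distance 0.18) and Mir667 (0.22), and for Mir484 Mir667 (0.09) and Mir1983 (0.15). For Mir877 they were Mir129-1 (0.14), at 535 CPM in replicate 1 and 514 CPM in replicate 2, and Gm23450 (0.14). Mir129-1 has a numbered copy, Mir129-2, and reads that map to both count for neither, so its level is uncertain. For Mir1224 the closest were Mir376c (0.07) and Mir3072 (0.12), imprinted genes of chromosome 12. Both were also higher in replicate 2, which follows from the choice by the values of both libraries. By mean log2 level alone the neighbours above and below were Mir1983 and Mir760 for Mir320, Mir434 and Mir296 for Mir484, Gm23450 and Mir129-1 for Mir877, and Mir376c and Mir1298 for Mir1224.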

How the data were processed

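The deposited tables, 1 for each of 2 libraries, hold raw counts of reads per miRNA gene on mm10 with GENCODE M21, per the accompanying text. The aligner, counter and trimming are not stated in the material used. The tables have no header, and their 3 count columns were read from the layout as either strand, strand of the gene and opposite strand. The second was used, and 4 rows of reads given to no gene (72.5% and 64.7% of all reads in replicates 1 and 2) stayed out of totals and tests. Detection was set at 2 CPM in each library, the pseudocount at 0.5 CPM and the count minimum for tests at 10 in sum.

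The libraries were compared by an exact binomial test given the totals, adjusted over 507 genes at 0.05, because a quasi-likelihood fit has no residual degrees of freedom with 1 library a side, and by edgeR 4.0.16 with a common dispersion (TMM factors 0.988 and 1.01, R 4.3.3). DESeq2 1.42.0 gave alternative size factors. Other scalings, columns, filters, class distances and leaving out a replicate were tried. Other steps used Python 3.11.15, scipy 1.17.1, pandas 2.3.3, matplotlib 3.10.9 and RNAfold 2.7.2. Named genes were the 4 members, 8 listed related genes, the genes closest in level and the 3 highest others of each positional class. Members, lists and tests were chosen with earlier results of these data known.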

Additional observations from a re-analysis of the deposited data

How the results depend on the processing

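Of 104 alternative values, 71 kept their call or lay within the spread between replicates, and 1 changed direction: the log2 ratio of the summed neuron markers, replicate 1 over replicate 2, was 0.51 with all 12 genes and −0.22 without Mir132, left out after its values were seen. Some of the 71 could not have come out otherwise. Leaving out 1 of 2 libraries cannot move a mean level by more than the SD. The count filters cannot change the ratio of a member. Such values are no check of the results. With all reads as the denominator the mean levels were 671 for Mir320, 713 for Mir484, 164 for Mir877 and 89.8 for Mir1224 per 1000000 reads, which follows from the larger denominator. Reads on miRNA genes were 27.5% of all reads in replicate 1 and 35.3% in replicate 2. Per all reads, Mir484 and Mir877 were thus slightly higher in replicate 2, while Mir320 stayed higher in replicate 1 and Mir1224 in replicate 2. The 104 alternative values held no ratio between the libraries on this denominator. Leaving out 1 replicate gave 1812 to 2552 CPM for Mir320, 2032 to 2577 for Mir484, 481 to 574 for Mir877 and 236 to 325 for Mir1224. The log2 ratio of mean levels then ranged over 0.01 to 0.17 for Mir484 over Mir320, 1.91 to 2.15 for Mir320 over Mir877 and 0.57 to 1.28 for Mir877 over Mir1224.

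With edgeR's common and tagwise dispersions the log2 ratios of replicate 1 over replicate 2 were 0.53 for Mir320, 0.38 for Mir484, 0.29 for Mir877 and −0.43 for Mir1224, with adjusted p of 1.0 in edgeR's exact test for each. The members that passed were 0 under either dispersion, and the genes that passed were 2 and 0, against 264 in the exact binomial test. That test left 243 to 268 under the other scalings, filters and columns. The intron-filling class had 49 genes at a tolerance of 20 bases, of whose counts Mir877 and Mir1224 held 1.43% on average, against 32.1% at 10 bases. The class at a start on the same strand had 47 at 20 bases and 140 at 100, and that beside an opposite coding start 19 at 200 and 63 at 1000, where class and distances were chosen after seeing the data. Mir320 and Mir484 held 25.3% of the counts of the last of these on average, against 67.6% at 500 bases. No paired analysis was possible because there is a single group. At these depths 1 count is worth 0.264 CPM in replicate 1 and 0.391 CPM in replicate 2.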

Other observations

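Neither capped precursor lies at an annotated start on its own strand, but 87 other miRNA genes do, within 50 bases. Of these 19 were detected (21.8%, against 19.3% of all genes), and 41 had no count. The highest were Mir760 at 2119 ± 180 CPM, Mir125b-1 at 1751 ± 137 CPM, whose mature sequence also arises from Mir125b-2 and whose count is thus uncertain, and Mir3072 at 296 ± 60.7 CPM (SD, n = 2 each).

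Of 67 miRNA genes with a single end at the end of an intron of at most 200 bases, 18 were detected (26.9%). Their median was 5.14 CPM, and Mir668 at 2592 CPM was far above the next, Mir5121 (named after its values were seen) at 13.1 ± 2.41 CPM (SD, n = 2) in Rpl13a. The class held 0.257% of counts in replicate 1 and 0.288% in replicate 2, nearly all of them from Mir668.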
